A study of Rattus norvegicus with 16 samples.

Results

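The left kidneys of 8 rats were compared by whether the right kidney of the same rat had been given a hormone. Of the 16 arrays, 8 came from left kidneys. In 4 of these rats the right kidney is titled ACTH (rats 1 and 5) or DEX (rats 3 and 7), and in the other 4 it is titled Saline (rats 2, 4, 6 and 8). A left kidney took the treatment of the right kidney with the same rat number, and all 8 left kidneys are titled as controls. The comparison asks whether gene expression differed outside the treated kidney. ACTH is adrenocorticotropic hormone, and DEX is the labels' abbreviation, which they do not expand. The design text gives 2 rats per treatment, whereas the array titles give 4 saline rats, and the titles were followed. The labels give no dose, route, duration, age, sex or strain, and nothing says whether an agent given to the right kidney reached the blood. No rat was untreated, since the controls had saline in the right kidney.

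ACTH is the pituitary hormone that drives the adrenal cortex to release glucocorticoids into the blood. Glucocorticoids bind the receptor encoded by Nr3c1, which enters the nucleus and raises or lowers transcription of its target genes in most tissues. In the kidney such targets include the kinase Sgk1, which promotes sodium uptake in the distal nephron, while Hsd11b2 inactivates glucocorticoids in the same segment. A hormone that circulates would reach both kidneys, so the left kidney is a control only for what stays local.

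The left arrays had the transcripts of a kidney. Slc34a1, the phosphate transporter of the proximal tubule, lay between 4916 and 6237 in signal, Umod of the thick ascending limb between 1874 and 3260, and the water channel Aqp2 of the collecting duct between 1020 and 1308. The largest difference among the 8 arrays was between rats 1 to 4 and rats 5 to 8, a division that the labels do not name and that held 1 ACTH, 1 DEX and 2 saline rats on each side. The first principal component carried 54.0% of the variance and separated them, and 1877 of 5244 probe sets differed between them at an adjusted p under 0.05 in limma. A term for this division was therefore in every fit, and values within each set of 4 rats are given for some genes and lists. Nothing in the labels says how the samples were handled, so p values measure the spread between these rats.

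Between the left kidneys of hormone rats and saline rats, 0 of 5244 probe sets passed the test (0% called, limma, adjusted p under 0.05). The smallest adjusted p was 0.999. Without adjustment 119 probe sets had a p under 0.05, which is 2.27% of those tested, where 262 were due by chance. Of these 119, 83 were higher and 36 lower in the hormone rats. The numbers climbed from 119 at the low end of the p scale to 317 at the high end. The difference over all probe sets had a median of 0.00 on the log2 scale, and 51.1% were above 0.

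**Figure D1:**
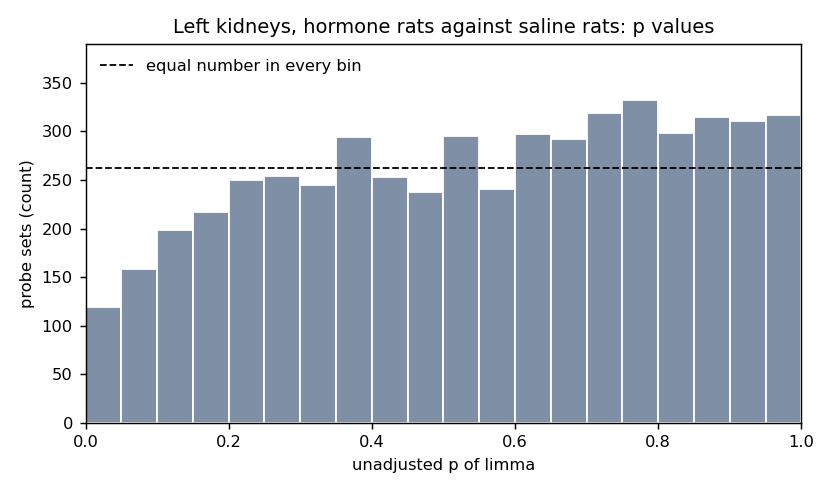
Unadjusted p values of limma for 5244 probe sets in the left kidney, hormone rats against saline rats, in bins of width 0.05. The dashed line marks an equal number in every bin (262.2), and the lowest bin holds 119 probe sets against 317 in the highest.

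The standard error of a difference had a median of 0.106 on the log2 scale and lay between 0.08 and 0.18 for the central 90% of probe sets. A lone probe set at the median standard error would have needed a log2 difference of 0.84, which is 1.79-fold, to be called. A probe set with a smaller standard error needed less. In 56 probe sets (1.07%) the 4 hormone arrays all lay above the 4 saline arrays after each set of 4 rats was centred on its mean, and in 57 (1.09%) they all lay below. Without the centring the counts were 14 (0.267%) and 16 (0.305%).

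The genes named first are those with the smallest p among genes whose groups did not overlap after centring, 12 in each direction. They were chosen from this same contrast, so their separation is how they were found and supports nothing further. Their log2 differences lay between 0.17 and 0.46 on the higher side and between −0.38 and −0.16 on the lower side. In deposited signal, without centring, 7 of the 12 higher genes and 3 of the 12 lower genes had no overlap between groups.

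Fabp5, a fatty acid binding protein, had signals of 307, 389, 336 and 392 in hormone rats 1, 3, 5 and 7 and of 283, 222, 218 and 295 in saline rats 2, 4, 6 and 8. The lowest hormone rat lay just above the highest saline rat. The log2 difference was 0.46 ± 0.13 (SE, 4 rats each, limma adjusted p = 0.999), with 0.44 among rats 1 to 4 and 0.49 among rats 5 to 8. In the right kidneys of the same rats the difference was 0.30 ± 0.10.

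Lpl, the lipase that releases fatty acids from circulating fat, had 442, 392, 337 and 340 in the hormone rats and 306, 324, 296 and 255 in the saline rats. Its difference was 0.33 ± 0.10, and its other probe sets gave 0.22 and 0.23. Upb1, which degrades pyrimidine bases, had 1112, 1307, 1366 and 1781 against 1071, 1016, 969 and 1047. The saline rats lay close together while DEX rat 7 stood above the rest, and the difference was 0.41 ± 0.12, with 0.21 among rats 1 to 4 and 0.62 among rats 5 to 8.

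Rps27l, a ribosomal protein-like gene, shows why the centring mattered. Its signals were 719 and 689 in hormone rats 1 and 3 against 513 and 573 in saline rats 2 and 4, and 324 and 360 in rats 5 and 7 against 268 and 283 in rats 6 and 8. The hormone rats were the higher ones inside each set of 4, yet the groups overlapped over all 8 rats. The difference was 0.33 ± 0.09. The remaining higher genes were Cpd, a carboxypeptidase (0.46), the growth factor receptor Pdgfra of stromal cells (0.28), Nenf (0.26), the actin-binding Tmsb4x (0.23), Mtdh (0.20), the matrix protein Spon1 (0.19), the peptidase Thop1 (0.18) and Guca2a, the guanylin peptide (0.17). Cpd had 0.83 among rats 1 to 4 and 0.09 among rats 5 to 8.

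Psap, the precursor of the lysosomal saposins, had 2205, 1937, 2263 and 2244 in the hormone rats and 2489, 2485, 2770 and 2632 in the saline rats. The groups did not overlap, and the difference was −0.26 ± 0.08, while the right kidneys gave 0.06 ± 0.10. The other Psap probe sets gave −0.11 and −0.13 in the left kidney. Papss1, which makes the donor for sulfation, had 561, 496, 561 and 607 against 798, 657, 611 and 871. All 4 hormone rats were below the saline rats, by a narrow gap, and the difference was −0.38 ± 0.13, with −0.30 ± 0.11 in the right kidneys. Hsp90b1, a chaperone of the endoplasmic reticulum, had −0.25 ± 0.09, and its other probe sets gave −0.13 and 0.02. The rest of the lower genes were Enpep, which degrades angiotensin (−0.31), C8h11orf54 (−0.30), the adaptor Crk and the glycosyltransferase B4galnt1 (both −0.22), the proteasome subunit Psmc3 (−0.21), Syt17 (−0.19), the connexin Gjb1 (−0.18), the receptor Fzd1 (−0.17) and the proton pump subunit Atp6v0c (−0.16).

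**Figure D2:**
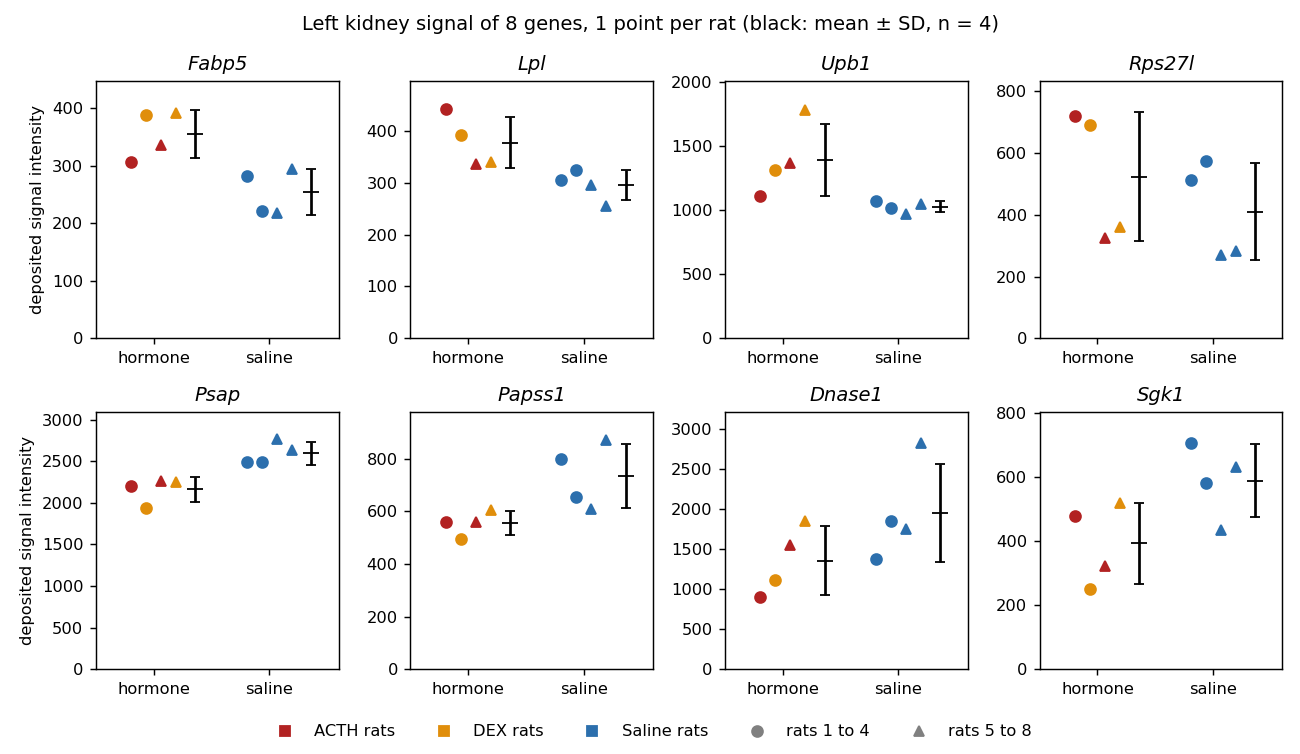
Deposited signal intensity in the left kidney for 8 genes, 1 point per rat, hormone rats beside saline rats, with the mean ± SD of 4 rats in black; red is ACTH, orange DEX and blue saline, circles are rats 1 to 4 and triangles rats 5 to 8. Fabp5, Lpl and Upb1 are higher and Psap and Papss1 lower in every hormone rat, Rps27l separates only inside each set of 4 rats, and Dnase1 and Sgk1 overlap; none passed the test.

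Of the probe sets without a single gene symbol, which the naming rule leaves out and which were chosen after their values were seen, L23128_g_at had the smallest p of the whole comparison (0.0002 in limma, adjusted p = 0.999). The platform annotation gives it the class I histocompatibility genes RT1-N2 and RT1-N3. Its left signals were 196, 199, 144 and 151 in the hormone rats and 269, 261, 237 and 222 in the saline rats, a difference of −0.49 ± 0.09. Its right signals were 163, 196, 158 and 168 against 255, 208, 201 and 216, a difference of −0.33 ± 0.10. The hormone rats were the lower ones in both kidneys with no overlap in either. The right difference did not pass the test (limma adjusted p = 0.999). On the left 0.305% of all probe sets had the hormone arrays all below without centring, and the share on the right was not counted. Both kidneys come from the same rats, so the right values are not an independent repeat. S85184_at had 1086, 772, 869 and 714 against 497, 552, 641 and 535 in the left kidney, a difference of 0.60 ± 0.14. Its companion S85184_g_at, named Ctsl for a lysosomal protease, gave 0.38 ± 0.15.

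Glucocorticoid receptor targets did not separate the left kidneys. Of 16 targets tested, 0 passed, 5 had values above 0 and 11 below, and the median was −0.05 beside 0.00 over all probe sets. The same genes had a right median of 0.14. On the left, 8 of the 16 were above 0 among rats 1 to 4 (median 0.02) and 4 among rats 5 to 8 (median −0.11). The members' mean log2 signal lay between 8.48 and 8.61 in the hormone rats, inside the range of 8.35 to 8.86 in the saline rats.

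Sgk1 had left signals of 478, 249, 323 and 519 in hormone rats 1, 3, 5 and 7 and of 707, 581, 435 and 630 in saline rats 2, 4, 6 and 8. The lowest value was in DEX rat 3, while DEX rat 7 lay inside the saline range. The difference was −0.60 ± 0.23 (95% interval −1.10 to −0.10, limma adjusted p = 0.999), and its value was −0.86 among rats 1 to 4 and −0.34 among rats 5 to 8. Right Sgk1 had 472, 690, 419 and 566 against 670, 554, 417 and 543, a difference of −0.03 ± 0.16. On the right, rat 3 was the highest of the 8 rats, whereas on the left it was the lowest.

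The receptor gene Nr3c1 had a left mean of 108 in the hormone rats (SD 14.0, n = 4) and 107 in the saline rats (SD 25.5, n = 4), a difference of 0.04 with a 95% interval of −0.29 to 0.36. Hsd11b2 had 746 (SD 44.9, n = 4) against 824 (SD 113, n = 4), a difference of −0.13 with an interval of −0.37 to 0.11. Neither interval reaches the log2 difference of 0.84 that a call needed at the median standard error. That is a limit for calling only, and smaller differences lie inside both intervals. Other targets were the phosphatase Dusp1 at −0.18, the gluconeogenic enzyme Pck1 at −0.14, the sodium channel subunit Scnn1a at −0.10, the inhibitor Nfkbia at −0.12 and the transcription factor Klf9 at 0.11.

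Dnase1, the secreted nuclease, is a member of the list of genes changed by ACTH in the treated kidney. It had the lowest value of the list's 16 members on the left. That list was chosen on contrasts of right with left kidney in these rats. The left arrays thus entered the choice, and the low left value of Dnase1 supports nothing further. The left signals of Dnase1 were 905 and 1553 after ACTH (rats 1 and 5) and 1107 and 1855 after DEX (rats 3 and 7). Saline rats 2, 4, 6 and 8 had 1374, 1846, 1753 and 2822. Hormone and saline rats overlapped, since rat 7 lay above 3 of the saline rats. The pooled difference was −0.52 ± 0.16 and that of the ACTH rats alone −0.66 ± 0.19, and the second probe set gave −0.62 pooled. In the right kidneys the pooled difference was 0.08 ± 0.17.

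The promoters of Dnase1 and Sgk1 are shown because these genes had the lowest left value of the ACTH list and of the glucocorticoid receptor list. They are from RefSeq on GRCr8, 250 bases before to 50 after a gene start, written 5′ to 3′ on the gene's strand, with the glucocorticoid receptor half-element TGTTCT in capitals on either strand (AGAACA is the same element on the other strand). Dnase1 is at chr10:12008195-12008494 on the minus strand and Sgk1 at chr1:24804782-24805081 on the minus strand, the first of its 3 starts in the table.
Dnase1: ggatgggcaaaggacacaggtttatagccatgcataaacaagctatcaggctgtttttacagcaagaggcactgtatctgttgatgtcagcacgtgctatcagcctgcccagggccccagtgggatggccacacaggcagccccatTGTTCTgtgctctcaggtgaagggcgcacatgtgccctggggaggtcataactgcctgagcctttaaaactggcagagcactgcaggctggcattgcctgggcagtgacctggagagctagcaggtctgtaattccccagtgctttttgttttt
Sgk1: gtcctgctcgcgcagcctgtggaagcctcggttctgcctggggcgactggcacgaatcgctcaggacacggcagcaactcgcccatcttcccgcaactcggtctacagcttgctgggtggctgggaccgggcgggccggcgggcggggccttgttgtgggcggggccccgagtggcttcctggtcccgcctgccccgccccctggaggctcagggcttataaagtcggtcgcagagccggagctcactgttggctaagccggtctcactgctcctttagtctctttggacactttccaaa
The Dnase1 window holds the 6 letters at base 147, and none of the 3 Sgk1 windows does. Of the 16 targets tested, 14 had a promoter in the table and 0 held the letters, and of the 24 named genes 15 had one and 1, Guca2a, held them. Among all genes in the table the share was 21.6%. A match is a description of these letters in this window only.

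Inflammatory genes that glucocorticoids repress did not pass either. Of 10 tested, 6 were above 0 and 4 below, with a median of 0.03. Ccl2, a monocyte chemokine, had 93.7, 73.7, 83.4 and 129 in the hormone rats and 59.6, 60.3, 91.5 and 84.9 in the saline rats, a difference of 0.29 ± 0.12. A second Ccl2 probe set gave 0.48 ± 0.17. The chemokine Ccl5 had 0.21 and the adhesion molecules Vcam1 and Icam1 −0.02 and 0.01. Distal nephron sodium and potassium transport genes had 4 of 16 above 0, with a median of −0.06 and 0 called. Besides Sgk1 they included the channel subunits Scnn1b at −0.19 and Scnn1g at −0.14 and the potassium channel Kcnj1 at −0.14. Within rats 5 to 8 alone, 8 of the 16 were above 0.

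The circadian clock, which glucocorticoids help to set, had 7 of 8 genes above 0 in the left kidneys of the hormone rats, a median of 0.08 and 0 called. Nr1d1, a repressor of the clock loop, had the largest value at 0.61 ± 0.28, with a 95% interval of −0.02 to 1.24. What stood out in the values was the spread among saline rats. Dbp, a clock output gene, had 873 and 832 in saline rats 2 and 6 against 158 and 195 in saline rats 4 and 8, while the hormone rats lay between 296 and 480. Its difference was 0.05 ± 0.49. Nr1d1 had 286 and 312 in rats 2 and 6 against 142 and 100 in rats 4 and 8. Bmal1, whose transcript peaks opposite to these, had 47.6 and 68.3 in rats 2 and 6 against 146 and 160 in rats 4 and 8, and 94.2 to 113 in the hormone rats. The SD of Bmal1 was 55.8 in the 4 saline rats and 7.78 in the 4 hormone rats. Rats 2 and 6 were also above rats 4 and 8 in the right kidneys, with Dbp at 529 and 562 in rats 2 and 6 and 184 and 217 in rats 4 and 8. The saline rats therefore differed among themselves by more than the groups did, and Per2, at 0.04 ± 0.20, added no difference.

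Sex-typical and growth hormone responsive genes had 12 of 19 above 0, a median of 0.02 and 0 called, with 6 above 0 among rats 1 to 4 and 11 among rats 5 to 8. Cyp2c11, a male-typical cytochrome, had left signals of 438, 152, 297 and 326 in the hormone rats and 713, 338, 528 and 324 in the saline rats. The difference was −0.64 ± 0.31 with overlapping groups, and −1.19 ± 0.48 in the right kidneys. Other Cyp2c11 probe sets gave −0.50 and −0.14 on the left.

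The genes that ACTH had changed in the treated kidney were compared in both kidneys. That list was chosen on contrasts of right with left kidney in these rats, so the left arrays entered the choice. Of its 16 genes, 9 were above 0 and 7 below in the left kidney, with a median of 0.04 and 0 called. Among rats 1 to 4, 7 were above 0, and among rats 5 to 8, 11 were. Tspo, the mitochondrial translocator protein, had left signals of 519 and 468 in ACTH rats 1 and 5 and 370 to 583 in the saline rats, against right signals of 1383 and 1050 in those ACTH rats. The left values of the ACTH rats lay inside the saline range. The same held for the membrane glycoprotein Gp2, with 37.8 and 76.3 on the left against 36.5 to 121 in the saline rats, and 104 and 451 on the right. The prolactin receptor Prlr had left signals of 221 and 360 in the ACTH rats, against 210 to 296 in the saline rats and 78.7 and 127 on the right. Rat 5 was the highest left kidney, and neither ACTH rat lay below the saline range on the left. The pooled left difference of Prlr was 0.08, and its other probe sets gave 0.12, 0.25 and 0.40.

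The glutathione transferase Gstm2 had left signals of 356 and 445, with 386 to 479 in the saline rats, and right signals of 787 and 1278. The transporter Slco1a1 had 356 and 168 on the left, with 355 to 389 in saline rats 2 and 4 and 117 to 134 in saline rats 6 and 8, and 107 and 55.4 on the right. The androgen-regulated protein Kap had 4276 and 3617 on the left, with 3005 to 5391 in the saline rats, and 2605 and 1842 on the right. Rat 1 was the lowest of rats 1 to 4 for Gstm2 and Kap. The pooled left differences were 0.15 for Tspo (95% interval −0.13 to 0.43), −0.02 for Gp2 (−0.63 to 0.59), 0.08 for Prlr (−0.16 to 0.32), −0.03 for Gstm2 (−0.31 to 0.25), 0.05 for Slco1a1 (−0.22 to 0.31) and −0.02 for Kap (−0.25 to 0.20).

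**Figure D3:**
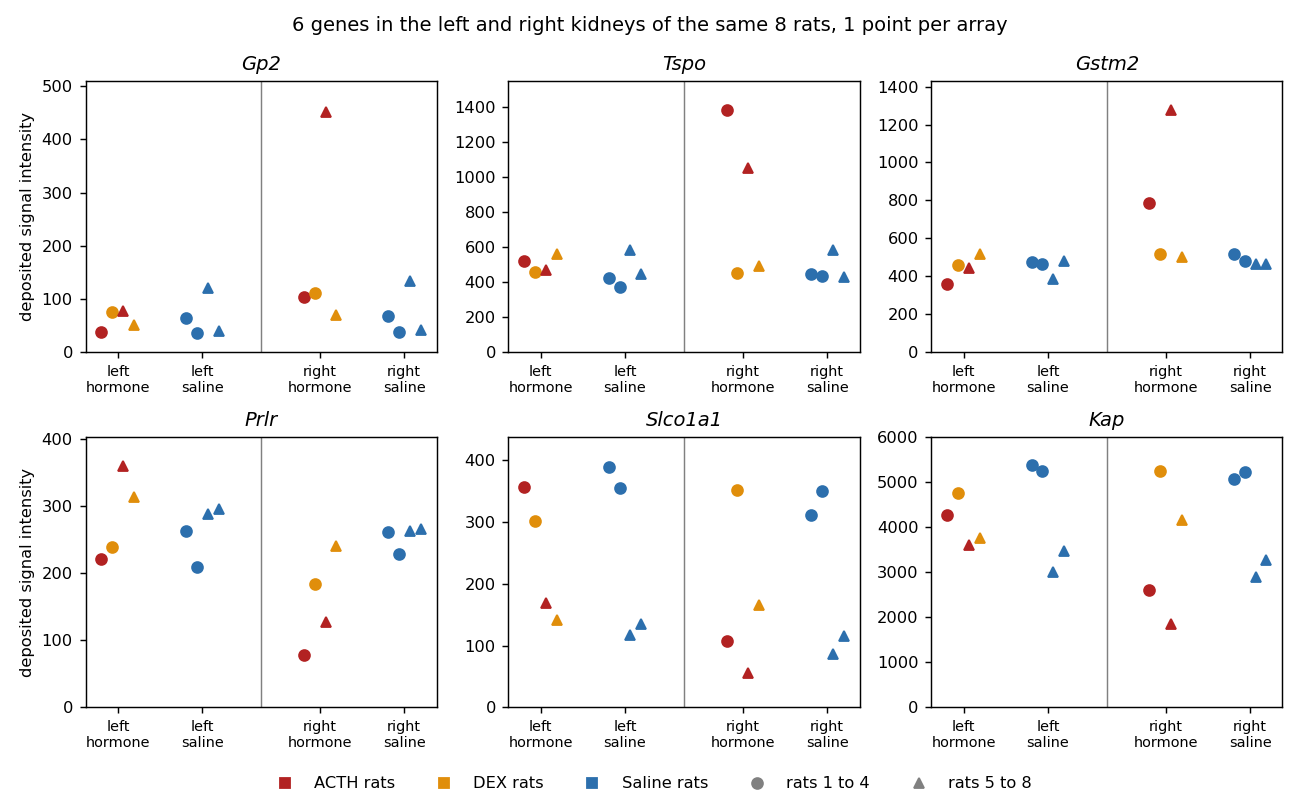
Deposited signal intensity of 6 genes in the left and right kidneys of the same 8 rats, 1 point per array, hormone beside saline rats; red is ACTH, orange DEX and blue saline, circles are rats 1 to 4 and triangles rats 5 to 8. The ACTH right kidneys stand apart from the other right kidneys for Tspo (1383 and 1050), Gstm2, Prlr and Kap, and for Gp2 rat 1 does not; the left kidneys of the same rats overlap the others.

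Matrix genes were higher in value on the left. Of 18 tested, 17 were above 0 in the hormone rats, the median was 0.13 and 0 were called, and 51.1% of all probe sets were above 0. Sparc, a collagen-binding glycoprotein, had 1560, 1863, 1828 and 1738 against 1303, 1630, 1206 and 1570 in the saline rats, a difference of 0.30 ± 0.12 in groups that overlapped. Its other probe sets gave 0.20, 0.01 and 0.16. The proteoglycan Dcn had 0.34 ± 0.15, and its other probe sets gave 0.22 and 0.34. With 1 rat left out the median lay between 0.08 and 0.19. Rats 1 to 4 alone gave a median of 0.24 and rats 5 to 8 alone 0.01, where 10 of 18 were above 0.

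The fibrillar collagen Col3a1 had left signals of 414, 283, 343 and 606 in the hormone rats and 275, 267, 370 and 457 in the saline rats, a difference of 0.23 ± 0.18. On the right it had 162, 142, 226 and 297 against 306, 278, 485 and 461, a difference of −0.85 ± 0.11 (limma adjusted p = 0.188). The groups overlapped in both kidneys, although on the right the hormone rats were the lower ones inside each set of 4. The test of right against left gave −1.09 ± 0.16 and did not pass (limma adjusted p = 0.136, 0% called over all probe sets). A second Col3a1 probe set gave −0.15 ± 0.26 on the left and −0.51 on the right. Col1a1, the other fibrillar collagen, had 0.23 ± 0.20 on the left and −0.43 ± 0.13 on the right. Its other probe sets gave −0.28, 0.28 and 0.30 on the left. In the probe set at −0.28 left saline rat 8 had 1429, against 147 to 350 in the other saline rats. The right kidney of rat 8 had 102. In the second Col3a1 probe set left rat 8 had 392, against 142 to 166 in the other saline rats. In the right kidneys 14 of the 18 matrix genes were below 0, with a median of −0.11.

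Interferon response and antigen presentation genes had 17 of 20 above 0 in the hormone rats, a median of 0.09 and 0 called. RT1-Da, a chain of a class II molecule that presents antigen, and RT1-DMb, part of the molecule that helps load peptide onto class II, had 0.34 ± 0.13 and 0.30 ± 0.12, and the invariant chain Cd74 had 0.40. RT1-Da had 746, 928, 631 and 796 against 725, 766, 552 and 437, so the groups overlapped, and its difference was 0.16 in rats 1 to 4 and 0.51 in rats 5 to 8. Other left probe sets gave 0.30 for RT1-Da and 0.19 and 0.12 for RT1-DMb. Each set of 4 rats taken alone had 14 of the 20 above 0. In the right kidneys 10 of the 20 were above 0, with a median of −0.006.

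The other functional groups had pooled medians between −0.04 and 0.06. Kidney injury and immediate early genes had 12 of 21 above 0 and a median of 0.06, fatty acid oxidation 11 of 17 and 0.05, gluconeogenesis and amino acid catabolism 5 of 16 and −0.04, heat shock 9 of 19 and −0.01, and cholesterol synthesis 6 of 15 and −0.03. None of their members passed. The heat shock median was 0.13 in the ACTH rats and −0.15 in the DEX rats, both against saline, and pooled it was −0.13 without rat 1 and 0.11 without rat 3. For cholesterol synthesis 9 of 15 were above 0 among rats 1 to 4 and 4 among rats 5 to 8. Among the members of these groups the aspartate transaminases Got2 and Got1 had −0.24 and −0.22, the annexin Anxa2 0.18 and the keratin Krt19 0.46. Another Got2 probe set gave −0.06.

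Fat markers moved with individual left kidneys more than with the groups. Ucp1, the uncoupling protein of brown fat, had 501, 253, 62.7 and 788 in hormone rats 1, 3, 5 and 7 and 64.7, 69.6, 255 and 62.7 in saline rats 2, 4, 6 and 8. Rats 1, 3, 7 and 6 were high and the other 4 low, so 3 of 4 hormone rats and 1 of 4 saline rats had the signal. The difference was 1.48 ± 0.65 (95% interval 0.05 to 2.90, limma adjusted p = 0.999). Fabp4, the fatty acid binding protein of adipocytes, had 213, 194, 72.1 and 263 against 54.5, 67.8, 157 and 60.1, a difference of 0.98 ± 0.37. The adipocyte protease Cfd had 145, 119, 76.9 and 309 against 60.7, 58.2, 119 and 75.6, a difference of 0.80 ± 0.31. The same 4 kidneys were the high ones for all 3 genes.

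Of 12 fat markers tested, 10 were above 0, 4 had an unadjusted p under 0.05 in limma, and the median was 0.30. In the right kidneys all 12 were above 0, with a median of 0.50. Right Fabp4 was 1284 in rat 1 and between 55.5 and 100 in the other right kidneys. On the left the mean log2 signal of the 12 markers was 7.94, 7.73, 7.14 and 7.93 in the hormone rats. In the saline rats it was 6.94, 7.03, 7.92 and 6.95. With that mean as a covariate, some genes outside the list changed little or grew. These were Fabp5 at 0.54 (0.46 without it), Upb1 at 0.45 (0.41), Psap at −0.28 (−0.26) and Sgk1 at −0.56 (−0.60). Others shrank, namely Cpd to 0.30 (0.46), Papss1 to −0.28 (−0.38) and Enpep to −0.22 (−0.31). So did Col1a1 to 0.08 (0.23), Col3a1 to 0.11 (0.23) and Tspo to −0.02 (0.15). The list's own members, Lpl among them, enter the covariate, so their values with it are not given. Adiponectin was not among the markers tested. In bulk tissue a larger number of fat cells cannot be told apart from more RNA per cell. Beyond these covariate values, the part of fat in the values of Lpl, of other lipid genes and of matrix genes was not tested.

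**Figure D4:**
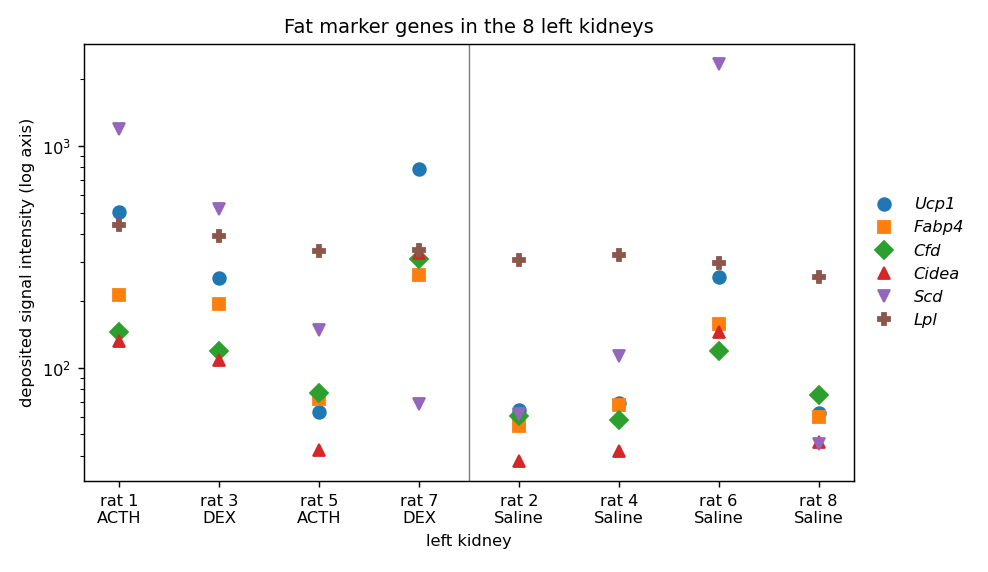
Deposited signal intensity (log axis) of 6 fat marker genes in the 8 left kidneys, hormone rats at left and saline rats at right of the line. Ucp1, Fabp4, Cfd and Cidea are high in rats 1, 3, 7 and 6 and low in rats 5, 2, 4 and 8, and Scd is highest in saline rat 6 at 2347.

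Within rats 1 to 4, both hormone rats (1 and 3) had high fat markers and neither saline rat (2 and 4) did. In that small fit 6 of 5244 probe sets were called, beside 0 over all 8 left kidneys. They stood for Ucp1 (2.17), the desaturase Scd (3.00), Fabp4 (1.51), Cidea (1.28), the fatty acid synthase Fasn (1.16) and the unnamed K01934mRNA#2_at (2.42). Ucp1, Scd, Fabp4 and Cidea are on the fat marker list, so their calls restate how these rats differed. Within rats 5 to 8 the Ucp1 difference was 0.79, and 0 probe sets were called. The interaction between hormone and set of rats had 0 calls in limma and 119 probe sets at an unadjusted p under 0.05.

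Red cell transcripts were highest in the same 4 kidneys, rats 1, 3, 6 and 7. Hbb, a haemoglobin chain, had 5282, 3736, 2969 and 4454 in the hormone rats and 2419, 1478, 5281 and 2611 in the saline rats, with rats 1 and 6 highest. The difference was 0.60 ± 0.30, with 1.23 among rats 1 to 4 and −0.03 among rats 5 to 8. The median over 4 red cell genes was 0.35, from 0.15 to 0.72 with 1 rat left out, 0.91 in rats 1 to 4 and −0.14 in rats 5 to 8. The blood content of the kidneys as an influence on other genes was not tested.

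Markers of the remaining cell types had medians between −0.05 and 0.05, with 0 called in each. The medians were 0.01 for proximal tubule, −0.02 for thick ascending limb, −0.05 for distal convoluted and connecting tubule, 0.05 for smooth muscle and mesangium, 0.01 for endothelium, 0.03 for both podocyte and collecting duct, 0.02 for intercalated cell, −0.04 for leukocyte and −0.04 for adrenal cortex. The adrenal enzymes Cyp17a1, Cyp21a1 and Cyp11a1 lay between 73.2 and 141 in every left kidney, with no rat apart from the others. The leukocyte marker Ptprc lay between 87.1 and 116.

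**Figure D5:**
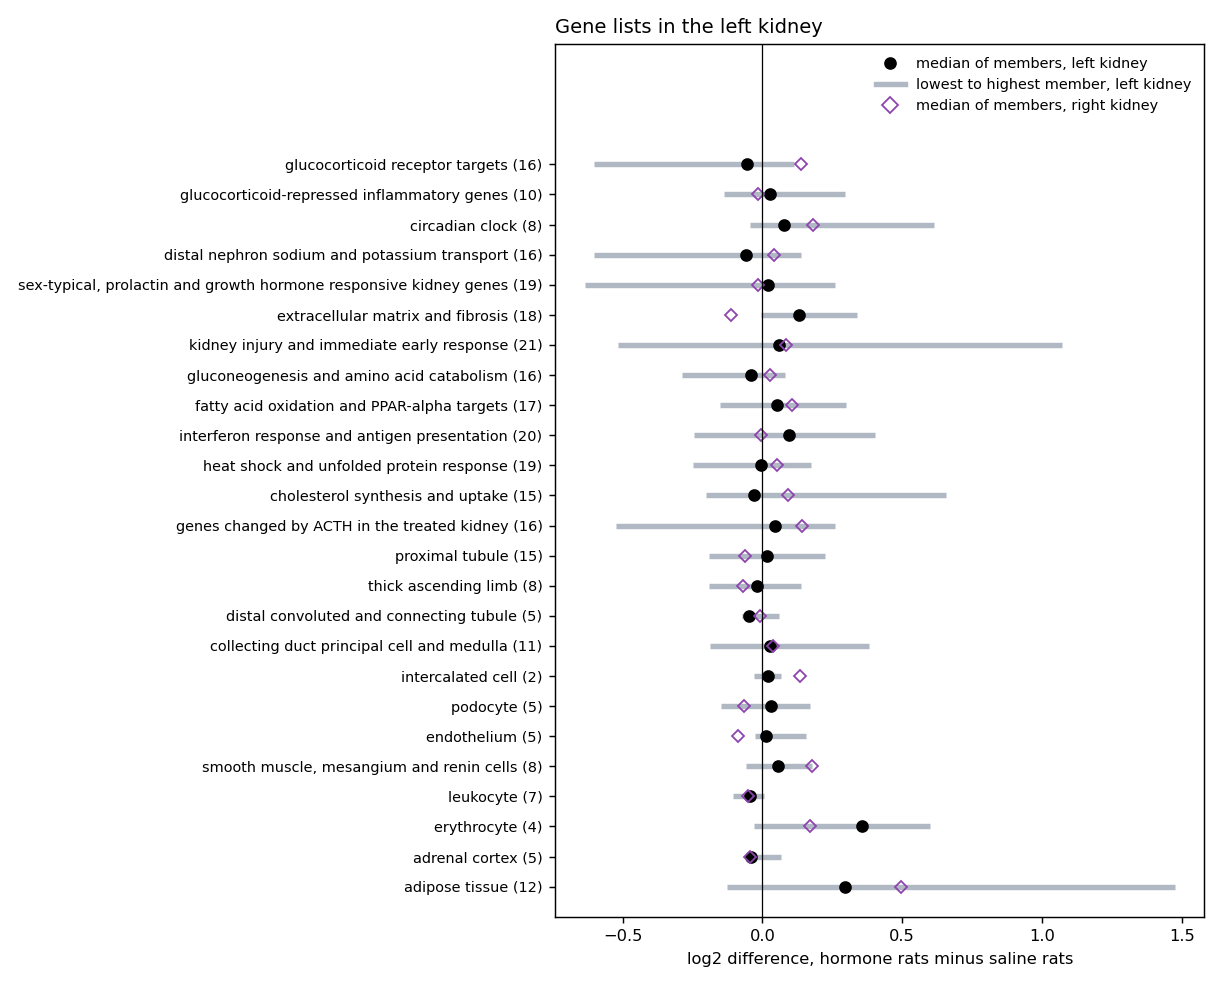
Log2 difference, hormone rats minus saline rats, for 25 gene lists with the number of members tested in brackets: filled circles are medians and bars the lowest to highest member in the left kidney, and open diamonds are medians in the right kidney. Fat (0.30), red cell (0.35) and matrix (0.13) genes have the largest left medians, and matrix genes lie at −0.11 on the right.

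Split by agent, the left kidneys of ACTH rats differed from those of saline rats in 1 probe set (0.0191% called). Those of DEX rats differed in 0 (0%), with 163 at an unadjusted p under 0.05 in limma, where 262 were due by chance. ACTH rats differed from DEX rats in 1 (0.0191%). The probe set was the same in both, M36151cds_i_at, 1 of 5 for RT1-Bb, a chain of the class II molecule that presents antigen. It falls outside the naming rule, which takes the brightest probe set of a gene, so it is named here with its values already known. Its left signals were 201 and 499 after ACTH (rats 1 and 5), 28.3 and 42.8 after DEX (rats 3 and 7), and 33.0, 18.3, 41.0 and 44.4 in the saline rats. The log2 difference of ACTH from saline was 2.77 ± 0.19 (limma adjusted p = 0.00054) and from DEX 2.71 ± 0.22 (limma adjusted p = 0.00237). In the right kidneys it had 71.7 and 441 in the ACTH rats and 21.0 to 43.4 in the other 6 rats.

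Both ACTH rats thus had the signal in both kidneys. The brightest RT1-Bb probe set had 389 and 976 after ACTH, 465 and 788 after DEX and 315, 416, 835 and 497 in the saline rats, with a difference of 0.34 ± 0.22 for ACTH, and U65217_i_at gave 0.19 ± 0.24. The other 2 were under the brightness limit, with left signals of at most 44.1. That limit used the mean over all arrays, and M36151cds_i_at was at most 44.4 on the left outside the ACTH rats. It thus entered the test through the group where it was high. With no brightness limit it was still called, at a limma adjusted p of 0.000109 for ACTH over saline and 0.000605 for ACTH over DEX. The call of ACTH over saline was lost without the term for the sets of rats (adjusted p = 0.125), and the probe set was not tested when the dimmest 60% were left out. That of ACTH over DEX was lost without that term (adjusted p = 0.445) and without rat 7 (0.191). Over the alternatives the adjusted p in limma ranged from 0.000108 to 0.125 for ACTH over saline and from 0.00041 to 0.445 for ACTH over DEX.

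No other gene passed for either agent. Among those named for the ACTH rats, Cyp24a1, which degrades active vitamin D, had 193 and 294 in rats 1 and 5 against 88.2, 85.0, 249 and 135 in the saline rats, a difference of 0.83 ± 0.20. Each ACTH rat was the highest of its set of 4. The pooled hormone value was 0.59 on the left and 0.72 on the right, and a second Cyp24a1 probe set gave 0.14 and 0.26. Acot1, an acyl-CoA thioesterase, had 0.59 ± 0.15, the signalling adaptor Shb had 0.37 ± 0.11, and Apom, a lipoprotein component, had −0.45 ± 0.10.

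Among those named for the DEX rats, Jund, a transcription factor subunit, had 202 and 237 in rats 3 and 7 against 80.3, 52.3, 65.3 and 158, a difference of 1.26 ± 0.30. Acsm3, an acyl-CoA synthetase, had 98.0 and 72.8 against 352, 542, 96.2 and 235, a difference of −1.45 ± 0.34. Its saline rat 6 was as low as the DEX rats. The phosphatase subunit Ppp1cc had 391 and 314 against 716, 665, 398 and 411, a difference of −0.57 ± 0.13, and on the right these DEX rats had 770 and 483. Fabp5 and Upb1 had 0.60 and 0.57 after DEX and 0.33 and 0.26 after ACTH, and the differences between the agents did not pass the test. Between the agents, the glucose transporter Slc2a2 had 244 and 201 in the ACTH rats against 129 and 108 in the DEX rats, with 127 to 230 in the saline rats, a difference of 0.82 ± 0.16 (limma adjusted p = 0.999).

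In the right kidneys the same pooled comparison, hormone against saline, had 0 calls (0%), 209 probe sets at an unadjusted p under 0.05 in limma and a smallest adjusted p of 0.188. The test of whether the hormone difference was unlike in the 2 kidneys had 0 calls (0%) and 145 such probe sets. On neither side did pooling ACTH with DEX give a called gene. In limma the counts at an unadjusted p under 0.05 all lay below the 262 due by chance. They were 119 on the left, 209 on the right and 145 between the kidneys.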

How the data were processed

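RNA from 16 rat kidneys was hybridised to 1-colour arrays. The values are the signal intensity per probe set on a linear scale, as deposited by the authors; in the sources used here the software and normalization are not given. Left array medians lay between 79.4 and 82.4, so no rescaling was done. Values were converted to log2(value + 16), 59 control probe sets were removed, and the dimmest 40% by mean over all arrays were left out, leaving 5244 of 8740. limma 3.58.1 (R 4.3.3) was fitted to the 8 left arrays with terms for hormone and for rats 5 to 8 and an intensity trend (5 residual and 5.49 prior degrees of freedom), adjusted by Benjamini and Hochberg's method, two-sided, threshold 0.05. Agents apart were fitted as 3 groups, and right kidneys the same way. Scripts were tested on simulated data. Each gene is given by its brightest probe set, and symbols are from the platform annotation, in which 7006 probe sets have 1 symbol, 308 several and 1426 none. The naming rule takes the 12 largest called changes each way. None was called, so these places went to genes with the smallest p whose groups did not overlap after centring each set of 4 rats. For the agents it takes 3 each way in order of p, and from each of 25 lists the 2 members with the smallest p. It adds 18 fixed genes of glucocorticoid action, the clock, sex-typical expression, the treated kidneys, fat and matrix. The comparison, the lists and the genes were chosen with earlier results of these data known. Left and right kidneys share the rat: deviations of the 2 kidneys from their group correlated at 0.18 to 0.54 in the 8 rats.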

Additional observations from a re-analysis of the deposited data

Results flagged for a closer look

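In 112 groups of 4 arrays tested for a value far from the other 3, 5 stood out, and chance gives about 1 in 20 groups. Left Ucp1 was highest among saline rats in rat 6, at 255 against 62.7 to 69.6. Left Gstm2 was lowest among saline rats in rat 6, at 386 against 465 to 479. Left Hsp90b1 was lowest among saline rats in rat 4, at 817 against 899 to 910. Left Psap was lowest among hormone rats in rat 3, at 1937 against 2205 to 2263. Left Fam111a was lowest among saline rats in rat 6, at 16.8 against 146 to 172.

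The RT1-Bb probe set M36151cds_i_at differed between ACTH and DEX rats on the left by 2.71 on the log2 scale, in a direct test of the agents (limma adjusted p = 0.00237). Both ACTH rats lay above both DEX rats.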

How the results depend on the processing

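Of the results for single genes, 1285 kept their direction and side of the threshold, 40 reversed, 6 newly passed and 3 no longer passed. Of the list medians 528 moved by less than the spread and 22 by more. The median over all probe sets moved by at most 0.01. With rat as a replicate block over all 16 arrays the counts were unchanged at 0 calls for hormone against saline, 1 for ACTH against saline, 0 for DEX against saline and 1 for ACTH against DEX.

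Calls for hormone against saline became 6 within rats 1 to 4 and 1 with the agents as separate groups, the RT1-Bb probe set at 1.41, and stayed at 0 with any rat left out. Calls for ACTH against saline became 0 with the dimmest 60% left out, 0 without the term for the sets of rats, 11 within rats 1 to 4, and 1 to 3 with a rat left out (3 without rat 5, 2 without rat 6). Those for DEX against saline became 6 within rats 1 to 4, 1 within rats 5 to 8, and 0 to 3 (3 without rat 3, 1 without rat 6). Those for ACTH against DEX became 0 with the dimmest 60% left out, 0 without the term, 4 within rats 1 to 4, 2 within rats 5 to 8, and 0 to 4 (4 without rat 3, 3 without rat 5, 2 without rat 6, 0 without rat 7). A lone rat was assumed to vary like the other groups.

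Reversed values were all small or of wide error. With array weights they were −0.12 for Bmal1, −0.087 for Nr3c1 and 0.011 for Kap. With the fat covariate they were 0.075 for Gstm2, −0.35 for Dbp, −0.024 for Tspo and 0.087 for Kap. Within rats 1 to 4 they were −0.22 for Per2, −0.058 for Dbp, −0.17 for Slco1a1, −0.027 for Prlr and 0.11 for Gp2. Within rats 5 to 8 they were −0.11 for Bmal1, 0.15 for Gstm2, −0.17 for Nr3c1 and 0.19 for Kap. With 1 rat left out the ranges were −0.22 to 0.33 for Bmal1, −0.10 to 0.25 for Per2, −0.12 to 0.079 for Gstm2, −0.40 to 0.54 for Dbp, −0.045 to 0.13 for Slco1a1, −0.26 to 0.27 for Gp2, −0.12 to 0.11 for Nr3c1 and −0.11 to 0.049 for Kap. The cause was not tested. Leaving out 1 rat moved Sgk1 between −0.79 and −0.37 and Ucp1 between 0.94 and 2.28. Acsm3 in DEX rats passed within rats 1 to 4 (−1.99) and without rat 6 (−1.78), and Fam111a between the agents likewise (−2.02 and −2.17). Precision is limited by having only 8 left arrays.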

Other observations

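Some left kidneys held single genes far from the other 7, by more than 1.5 on the log2 scale. Hmox1, which degrades haem, had 2835 in ACTH rat 1 against 106 to 143 elsewhere and 228 in that rat's right kidney, and a second probe set had 817 against 50.6 to 75.1. The potassium channel Kcna6 had 1796 in saline rat 8 against 45.4 to 70.1, and 48.3 in its right kidney. Kcna5 had 672 and Hoxc4 932 in the same left kidney, with 136 and 151 on the right. The protease Mep1a had 40.1 in DEX rat 7 against 446 to 692, and 481 on the right. For these genes a value that far from the others was seen in the left kidney of the rat and not in its right one. In saline rat 8 the unnamed M60753_s_at and M93257_s_at were low in both kidneys, at 171 and 334 on the left and 194 and 450 on the right, where the other left kidneys had at least 534 and 1175.

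Fam111a differed between rats in both kidneys. Its left signals were 19.4, 19.8 and 16.8 in rats 1, 5 and 6 and 128 to 172 in the other 5 rats, and its right signals were 19.3, 18.3 and 16.7 against 97.2 to 220. The 3 low rats were both ACTH rats and 1 saline rat.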
